A study of Salmo salar with 8 samples.

Results

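Atlantic salmon smolts that had spent 24 h in full-strength seawater (T4) were compared with smolts that had stayed in freshwater (T3), using the RNA of single gill nuclei. The comparison rests on 4 of the 8 samples of the study, 2 at T4 and 2 at T3, which were chosen by their labels alone. For each sample the UMIs (unique molecular identifiers, each standing for 1 captured RNA molecule) of all its nuclei were added up per gene, so that the sample and not the nucleus was the replicate. The question was which genes of the gill differ after a day in seawater.

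All fish were of a commercial strain and were reared in freshwater under constant light. T4 and T3 fish had both passed through 8 weeks of short photoperiod and then 8 weeks back under constant light. T4 fish were taken out of the T3 cohort and moved to seawater for 24 h, and no group that was moved between freshwater tanks was used here. Seawater itself, the netting and transfer, and the further day therefore cannot be told apart. The other samples served only to estimate the spread and as a backdrop, namely 2 of parr under constant light (T1) and 2 taken late in the short photoperiod (T2). The labels do not say whether duplicates came from separate fish, so p-values measure the spread between these samples, which may be partly technical.

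In seawater a teleost gill must excrete salt. Ionocytes, also called mitochondrion-rich cells, do this with the Na,K-ATPase and the cotransporter NKCC1 in their basolateral membrane, which load the cell with chloride, and with the chloride channel CFTR in the apical membrane, through which it leaves. Pavement cells cover most of the gill surface and carry Rh glycoproteins, which pass ammonia. The gill is also a lymphoid organ and holds many T cells and antigen-presenting cells.

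The T4 samples held 4383507 and 2770081 UMIs in 2823 and 1986 nuclei, and the T3 samples held 3469522 and 3257730 UMIs in 2659 and 2375 nuclei. Median depth per nucleus was 1013 and 877 UMIs at T4, against 918 and 924 at T3. Nuclei with at least 2500 detected genes, which can include more than 1 nucleus per droplet, held 25.5% and 24.9% of the UMIs at T4, against 16.5% and 19.4% at T3. No doublet caller was run. Any 2 of these 4 libraries shared between 1 and 6 cell barcodes. The correlation of log2(CPM + 1) across genes was 0.952 between the T4 samples, 0.956 between the T3 samples and 0.948 to 0.966 across the groups, so that samples of 1 group were no more alike than samples of different groups. Levels are given below as CPM (the UMIs of a gene scaled to a common library size after TMM normalization). Since these are 3′ libraries read in nuclei, levels are compared between samples and not between genes.

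No gene passed the threshold in the gill as a whole. Of 24815 genes tested, 0 (0%) had an adjusted p under 0.01 in edgeR's quasi-likelihood test, and 1, capsl, lay under 0.05. At an unadjusted p under 0.05 there were 504 genes, of which 199 (0.802%) were higher and 305 (1.23%) lower at T4. DESeq2 called 1 gene, which was lower at T4. Without the filter on low counts 51 genes were called, 26 higher and 25 lower. Of these 51, 50 were also tested with the filter. The samples of the 2 time points overlapped in 11 of the 51. In 3564 genes (14.4%) both T4 samples lay above both T3 samples, and in 3827 (15.4%) both lay below. For 14400 genes (58.0%) the 95% interval of the difference lay within 1 log2 unit of 0 on either side. For the remaining genes the interval reached beyond 1 log2 unit on at least 1 side, or none was given.

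**Figure D1:**
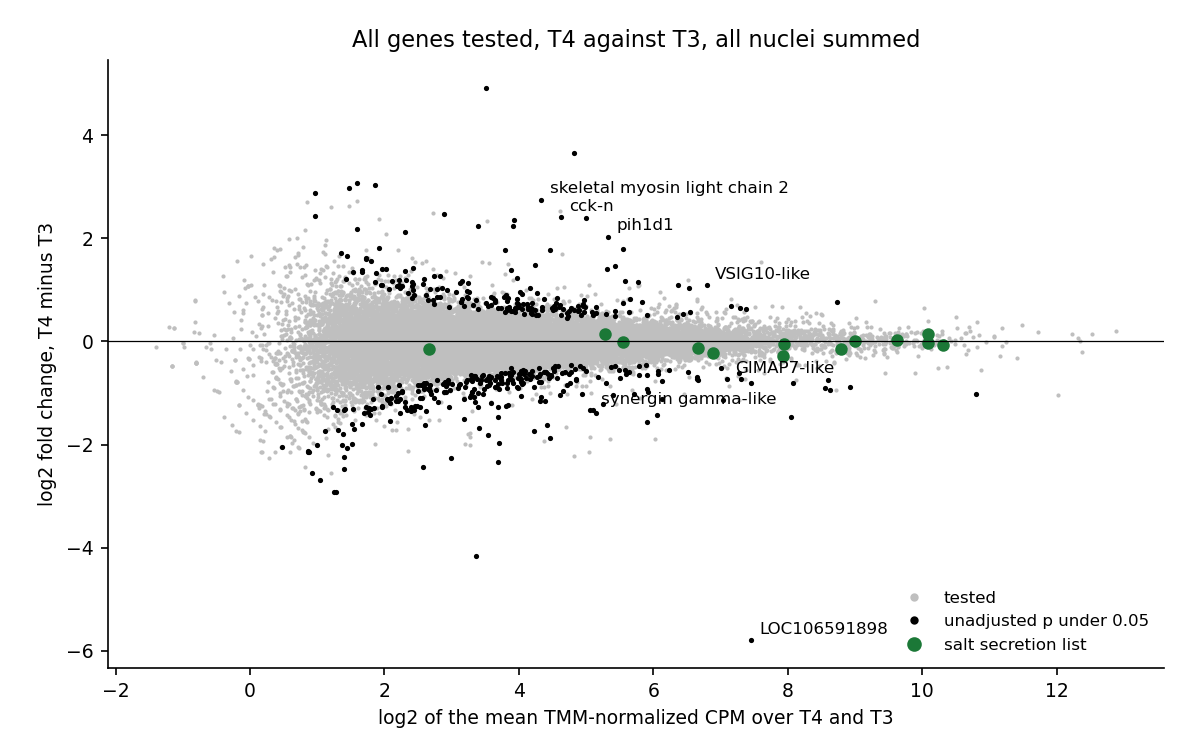
Log2 fold change (T4 minus T3) against the log2 mean CPM for genes listed in at least 1 sample of each time point. Black points have an unadjusted p under 0.05, and the 13 salt secretion genes, in green, all lie between -0.27 and 0.14.

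No difference between T4 and T3 was resolved in the salt secretion genes over all nuclei, where the median half-width of their 95% intervals was 0.58 log2 units. Na,K-ATPase subunit genes entered this list by name, so it also holds LOC106602157 and LOC106610479, which were higher in parr. All 13 members were tested, 0 passed the threshold in either direction, and in none of them were the samples of the 2 time points apart. Their median log2 fold change was -0.05, against 0.00 over all genes tested, and the 95% interval lay within 1 log2 unit of 0 for 12 of 13.

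For nkcc1a, the NKCC1 cotransporter of ionocytes, the level was 191 and 251 CPM at T4 and 242 and 291 CPM at T3. The log2 fold change was -0.27 with a 95% interval of -0.83 to 0.29. The T4 samples reached into the T3 range, and both time points lay above parr and short-photoperiod fish, which had between 54.5 and 125 CPM. For the CFTR gene LOC100136366 the level was 31.7 and 50.1 CPM at T4 and 32.7 and 41.2 CPM at T3, with a log2 fold change of 0.14 (95% interval -0.42 to 0.70). The T4 samples bracketed the T3 samples.

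Among the catalytic alpha subunits of the Na,K-ATPase, LOC100136390 had 1207 and 1270 CPM at T4, against 1063 and 1521 at T3. The copy LOC106575572 had 1072 and 1078 CPM at T4, against 927 and 1262 at T3. In both genes the T4 samples sat between the T3 samples. The copies LOC106602157 (115 and 78.0 CPM at T4, 113 and 98.6 at T3) and LOC106610479 (123 and 94.1 CPM at T4, 140 and 115 at T3) overlapped as well. Both stood far below parr, where they had between 461 and 777 CPM. At the beta subunits, which the pump needs to reach the membrane, log2 fold changes ran from -0.15 for at1b1 to 0.14 for LOC106575754. The potassium channel gene KCNJ1 (LOC106581096, ATP-sensitive inward rectifier channel 1-like) was low and least well resolved. It had 3.62 and 8.59 CPM at T4, against 4.19 and 8.91 CPM at T3, with an interval of -1.35 to 1.05.

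**Figure D2:**
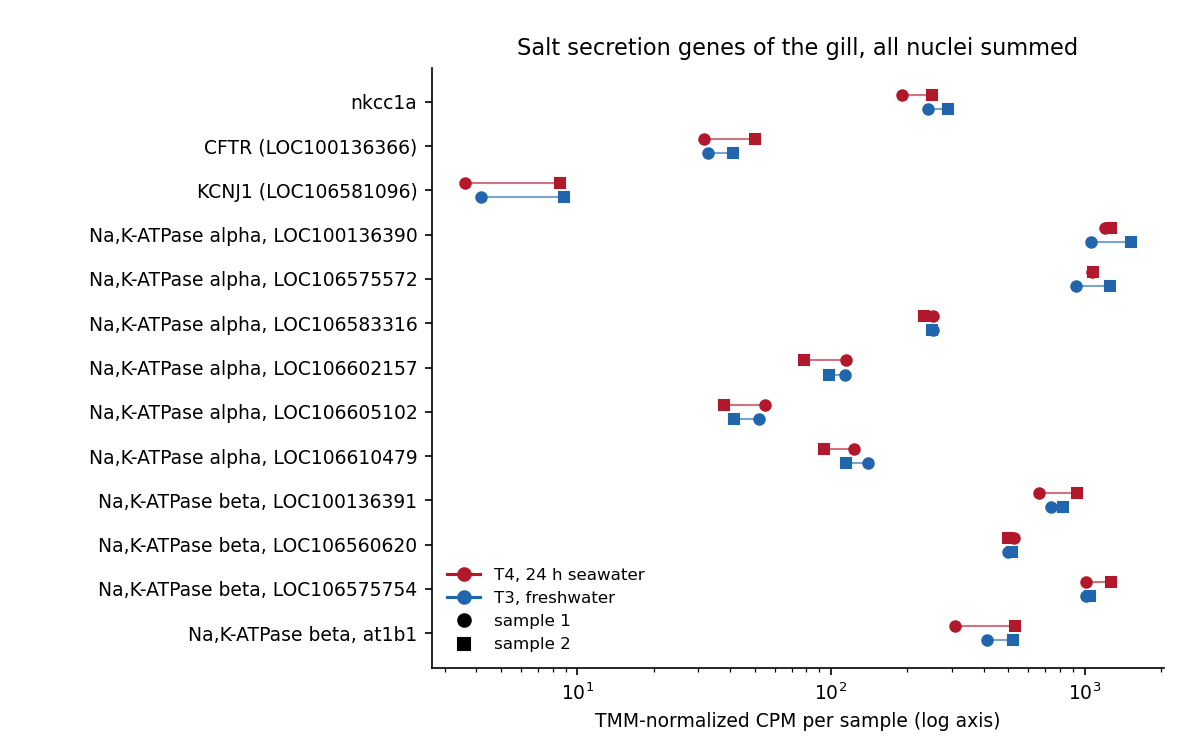
Level of the 13 salt secretion genes in each sample, as TMM-normalized CPM on a log axis, with T4 (red) above T3 (blue) and lines joining the 2 samples of a time point. The ranges of the 2 time points overlap in every gene.

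Of the genes that the study ties to seawater transfer 0 of 8 passed the threshold, and the samples overlapped in all but tap2a1. The study found them in whole-gill RNA and not in nuclei, so the measures are unlike. It reported CXCL10, CD40, TAP and TAPBP as suppressed, and carbonic anhydrase, Abca12 and nucleoplasmin as induced. Here the estimates for CD40 (0.29) and carbonic anhydrase 4-like (-0.30) had the opposite sign, and the others had the same sign. The chemokine gene cxl10 (CXCL10, which draws T cells) had 8.60 and 7.52 CPM at T4, against 13.1 and 6.76 CPM at T3. The costimulatory receptor CD40 (LOC106572807) had 41.9 and 52.6 CPM at T4, against 44.5 and 32.6 CPM at T3. The peptide transporter genes of antigen presentation differed in pattern: tap2a1 had 11.5 and 11.8 CPM at T4, against 17.9 and 13.5 CPM at T3, while tap2b had 10.6 and 12.2 CPM at T4, against 5.87 and 26.4 CPM at T3. Only for tap2a1 did the 2 time points not overlap, with a log2 fold change of -0.43 (95% interval -0.98 to 0.12). Of all genes tested, 15.4% were apart downward and 14.4% upward. The gene of tapasin, tapbp, which loads peptides onto class I molecules, had 104 and 77.3 CPM at T4, against 127 and 86.0 CPM at T3.

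The lipid transporter gene abca12, needed for the lipid barrier of mammalian skin, had 951 and 1121 CPM at T4, against 827 and 989 CPM at T3. The log2 fold change was 0.19 (95% interval -0.43 to 0.81), and the samples overlapped. The carbonic anhydrase 4-like gene LOC106569487, from a family that makes bicarbonate and protons from carbon dioxide, had 298 and 667 CPM at T4, against 478 and 706 CPM at T3. That gene stood at 1.83 to 21.7 CPM in the parr and short-photoperiod samples, below every T4 and T3 sample. The nucleoplasmin-like gene LOC106585752 had 601 and 666 CPM at T4, against 405 and 639 CPM at T3.

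**Figure D3:**
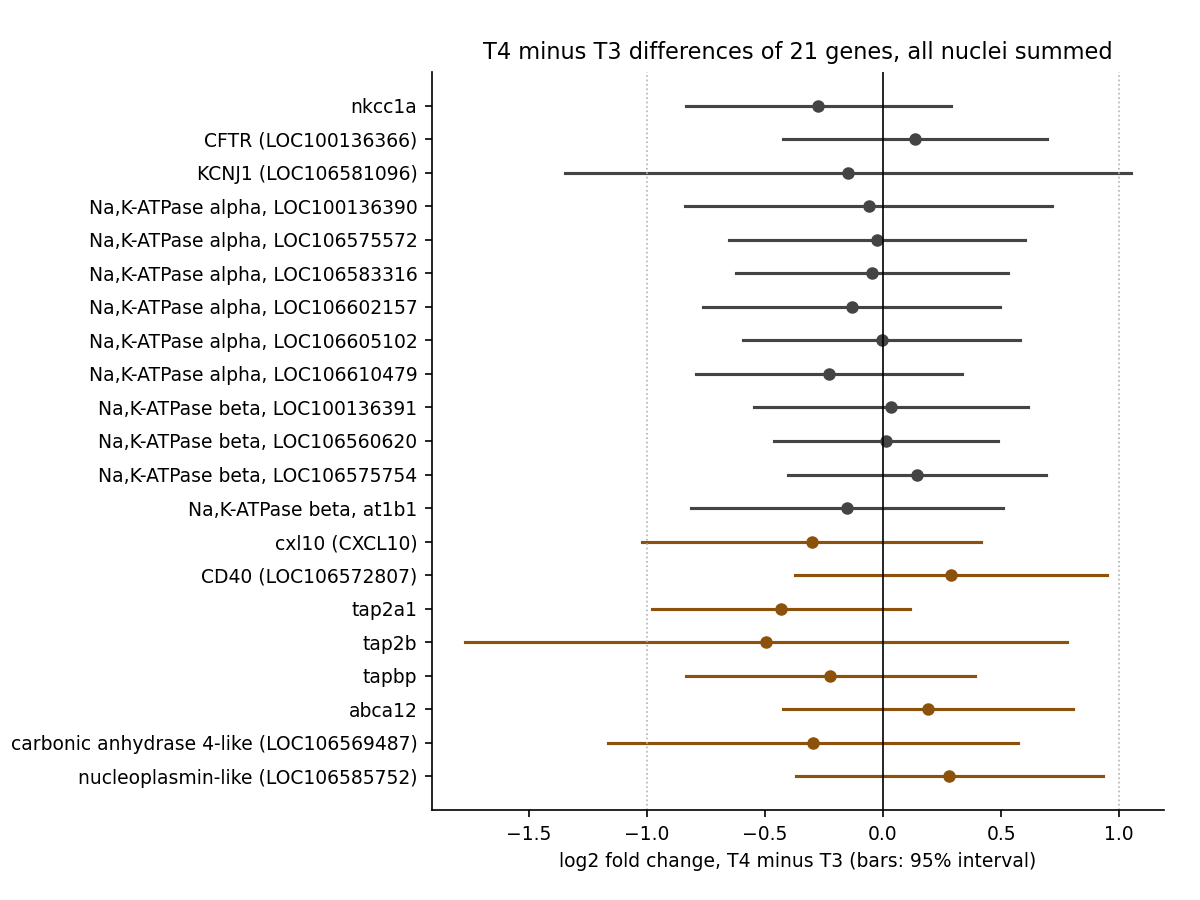
Log2 fold change (T4 minus T3) with its 95% interval for the 13 salt secretion genes (grey) and the 8 genes tied to seawater transfer (brown). All 21 intervals include 0, and dotted lines mark a change of 1 log2 unit.

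Other transport genes gave the same picture. Of 19 genes of freshwater ion uptake and acid-base transport, 16 were tested and 0 passed. The most abundant, carbonic anhydrase 12-like (LOC106569486), had 892 and 1053 CPM at T4, against 896 and 820 CPM at T3. Sodium/hydrogen exchanger 3-like (LOC106569766), an apical exchanger of sodium uptake, had 403 and 617 CPM at T4, against 478 and 684 CPM at T3. The samples overlapped in both genes. Of the 3 osmolyte genes, all taurine transporters, 0 passed, and the log2 fold changes lay between -0.18 and 0.14. The most abundant, LOC106566182, had 227 and 208 CPM at T4, against 191 and 231 CPM at T3. Of 4 aquaporin genes 3 were tested. The water and glycerol channel gene aqp7 was not listed in either T4 sample, against 2.52 and 2.15 CPM at T3, with an unadjusted p of 0.000896 and an adjusted p of 1. The aqp3a gene, coding for another such channel, had 4.30 and 2.86 CPM at T4, against 1.40 and 1.84 CPM at T3, and aqp3b (LOC106567539) had 5.43 and 6.44 CPM at T4, against 8.95 and 5.84 CPM at T3. Each count file lists only genes found in at least 3 nuclei, so a level of 0 means that a gene was not listed and no fold change is given against it.

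Genes of the cornified envelope had mostly positive estimates, none of which passed the test. Of 33 genes of the cornified envelope, keratins and desmosomes 31 were tested and 0 passed. The estimate was above 0 in 29 of 31 and the median was 0.23, against 0.00 over all genes, and in 7 genes both T4 samples lay above both T3 samples (22.6% of those tested, against 14.4% of all genes). The summed level of the list was 11366 and 9995 CPM at T4, against 9102 and 9389 CPM at T3, so the samples did not overlap. T2 sample 2, in freshwater, had 10867 CPM, above T4 sample 2. The sums overlapped in ionocyte-marker and pavement-marker nuclei, defined below, and were apart in all other nuclei. In the most abundant member, a keratin 13-like gene (LOC106564957), the samples overlapped, with 2145 and 2272 CPM at T4, against 1986 and 2172 CPM at T3 (log2 fold change 0.09). For tgm1, the transglutaminase that crosslinks the cornified envelope, the level was 18.8 and 22.9 CPM at T4, against 10.9 and 14.1 CPM at T3 (log2 fold change 0.73, unadjusted p = 0.0253, adjusted p = 1). Another type I keratin gene, also keratin 13-like (LOC106587764), had 327 and 265 CPM at T4, against 201 and 171 CPM at T3. Envoplakin-like (LOC106601393), a scaffold protein of the envelope, had 175 and 204 CPM at T4, against 140 and 144 CPM at T3. In tgm1, LOC106587764 and LOC106601393 the samples of the 2 time points were apart.

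All 24 tight junction genes were tested, and 0 passed. The estimate was above 0 in 14 and below 0 in 10, with a median of 0.11. In 9 of them both T4 samples lay above both T3 samples (37.5%, against 14.4% of all genes) and in 3 below (12.5%, against 15.4%). The most abundant, a claudin-4-like gene (LOC106581065) for a seal protein of tight junctions, had 270 and 369 CPM at T4, against 309 and 408 CPM at T3, and the samples overlapped. Another claudin-4-like gene (LOC106563812) had 156 and 108 CPM at T4, against 85.0 and 97.4 CPM at T3. The cld5 gene, for claudin-5, had 162 and 190 CPM at T4, against 146 and 113 CPM at T3. Both genes were apart upward, whereas a claudin-10-like gene (LOC106575313) was apart downward, with 6.79 and 3.94 CPM at T4, against 9.51 and 7.37 CPM at T3. The occludin gene, ocln, had 267 and 278 CPM at T4, against 237 and 258 CPM at T3.

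No immune gene passed the threshold. Of 25 antigen presentation genes 23 were tested and 0 passed. The estimate was below 0 in 17 and the median was -0.11. In 4 of the 23 both T4 samples lay below both T3 samples (17.4%, against 15.4% of all genes), and in 0 above (0%, against 14.4%). The most abundant of them, a class II alpha chain gene (LOC106565699), had 2737 and 2093 CPM at T4, against 3094 and 2933 CPM at T3, and psmb8b, coding for a subunit of the immunoproteasome, had 36.0 and 39.7 CPM at T4, against 48.1 and 46.4 CPM at T3.

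Of 46 interferon and chemokine genes 43 were tested and 0 passed. The estimate was below 0 in 25 and above 0 in 18, with a median of -0.12. Upward 6 genes were apart (14.0%, against 14.4% of all genes) and downward 9 (20.9%, against 15.4%). The most abundant, the guanylate-binding protein 1-like gene LOC106582502, had 1289 and 305 CPM at T4, against 519 and 412 CPM at T3. Its log2 fold change of 0.78 was the highest on the list and rested on T4 sample 1, with T4 sample 2 below both T3 samples. The interferon-induced protein 44-like gene LOC106574482 had 9.28 and 9.30 CPM at T4, against 16.5 and 14.8 CPM at T3 (unadjusted p = 0.00683). The antiviral GTPase gene mx had 13.1 and 11.1 CPM at T4, against 18.7 and 16.3 CPM at T3 (unadjusted p = 0.0463). Another gene labelled interferon-induced protein 44-like, LOC106565178, lay the other way, with 12.4 and 18.6 CPM at T4, against 12.02 and 9.53 CPM at T3.

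The 7 T cell markers all had estimates below 0, with a median of -0.46, and 0 passed. Their summed level was 70.1 and 79.5 CPM at T4, against 115 and 80.8 CPM at T3, so that the groups were narrowly apart. The defining gene cd3e, a chain of the T cell receptor complex, had 26.5 and 25.1 CPM at T4, against 34.7 and 26.1 CPM at T3. In sums over all nuclei, fewer cells of a type and less RNA per cell cannot be told apart. Of the 13 erythrocyte genes 0 passed and 6 were apart downward (46.2%, against 15.4% of all genes), with a median of -0.51. Their summed level was 4276 and 11068 CPM at T4, against 9870 and 9824 CPM at T3. The low value was T4 sample 1, and T4 sample 2 exceeded both T3 samples. The most abundant, hemoglobin subunit alpha-4 (LOC106607375), had 834 and 2114 CPM at T4, against 1660 and 1813 CPM at T3. With the hemoglobin genes left out of the library sizes, the named genes shifted by at most 0.01 log2 units.

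**Figure D4:**
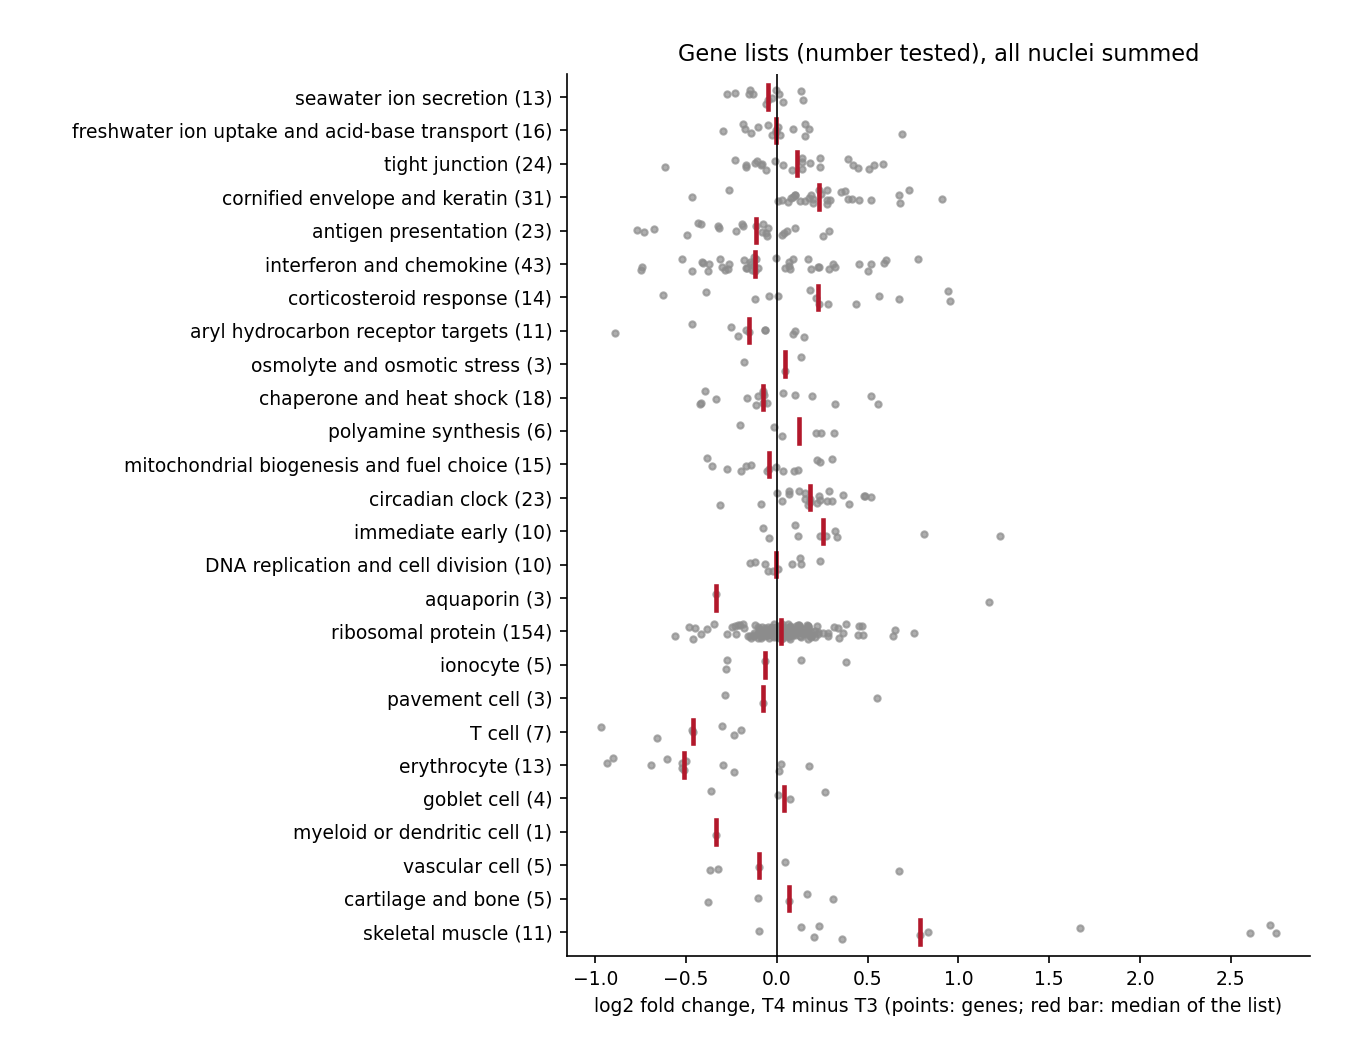
Log2 fold change (T4 minus T3) of each tested gene (grey points) on 26 lists, with the median of a list as a red bar and the median of all genes tested as a black line. Cornified envelope and keratin genes sit mostly right of the line (29 of 31), the 7 T cell genes sit left, and skeletal muscle genes spread farthest.

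Of 15 corticosteroid response genes 14 were tested, and 0 passed. The median was 0.22, and 1 gene was apart upward and 1 downward (7.14% each, against 14.4% and 15.4% of all genes). The most abundant, the uncharacterized LOC106604170, had 163 and 652 CPM at T4, against 137 and 415 CPM at T3. The FKBP5-like gene (LOC106565346), a chaperone of the glucocorticoid receptor that the hormone induces in mammals, had 71.7 and 258 CPM at T4, against 81.1 and 202 CPM at T3. TSC22D3-like (LOC106612265), known as a glucocorticoid-induced gene in mammals, had 151 and 363 CPM at T4, against 140 and 281 CPM at T3. In these 3 genes sample 2 was high and sample 1 low at both T4 and T3. The xenobiotic enzyme gene cyp1a-1, a classic target of the aryl hydrocarbon receptor, followed this pattern too, with 166 and 480 CPM at T4, against 134 and 542 CPM at T3. Another gene of the aryl hydrocarbon receptor list and its most abundant, NAD(P)H dehydrogenase 1-like (LOC106587985), was apart downward, with 479 and 472 CPM at T4, against 593 and 542 CPM at T3.

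Of 27 chaperone and heat shock genes 18 were tested and 0 passed. Of these, 2 were apart upward and 2 downward (11.1% each, against 14.4% and 15.4% of all genes). The gene hspa8, the constitutive Hsp70, had 1463 and 1599 CPM at T4, against 1416 and 1813 CPM at T3. The 10 immediate early genes were all tested, with a median of 0.25. In 4 of the 10 (40%, against 14.4% of all genes) both T4 samples lay above both T3 samples, among them fosl2, a Fos family transcription factor gene, with 53.9 and 60.8 CPM at T4, against 48.1 and 43.0 CPM at T3. Of 24 circadian clock genes 23 were tested, 21 with estimates above 0 and a median of 0.19, and 2 were apart upward (8.70%, against 14.4% of all genes). The most abundant, the basic helix-loop-helix protein 40-like gene LOC106582864, had 124 and 79.8 CPM at T4, against 88.6 and 94.9 CPM at T3. Labels give no hour of sampling, so the part of the time of day was not tested. For the 10 DNA replication genes the median was -0.01 and all intervals lay within 1 log2 unit of 0. Of 155 ribosomal protein genes 154 were tested, with a median of 0.02 and 0 past the threshold. On the remaining pathway lists 0 genes passed either. The median was 0.12 for 6 polyamine synthesis genes, -0.15 for 11 tested genes of the aryl hydrocarbon receptor list, which includes a clock gene by its name, and -0.04 for 15 genes of mitochondrial biogenesis and fuel choice. Among cell type markers 0 passed, and the median was -0.07 for 5 ionocyte genes, -0.08 for 3 pavement cell genes, 0.04 for 4 goblet cell genes, -0.34 for the myeloid gene flt3, -0.10 for 5 vascular genes and 0.07 for 5 cartilage and bone genes. The summed level of the vascular list was apart upward, with 302 and 497 CPM at T4, against 281 and 255 CPM at T3, although 3 of its 5 genes had estimates below 0. Much of such a sum is the ammonia channel gene rhag (LOC106571195). In the pavement-marker nuclei defined below, rhag gave 213 and 519 of 244 and 557 CPM at T4. The summed level of the pavement cell list was apart downward, with 2212 and 2681 CPM at T4, against 2765 and 3040 CPM at T3. Of its 3 genes 1 was apart downward and 1 upward. The other lists of this group overlapped.

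The genes with the smallest p-values were picked after their values had been seen, and have an adjusted p of 1 unless stated. The myosin light chain 2 gene of skeletal muscle (LOC106606900) had 24.2 and 46.2 CPM at T4, against 4.19 and 6.15 CPM at T3 (log2 fold change 2.75 ± 0.53, SE). The time points were well apart, but a T1 sample reached 16.9 CPM. Of the 19 skeletal muscle genes 11 were tested, and in 6 of them both T4 samples lay above both T3 samples (54.5%, against 14.4% of all genes). The summed level of the list was 147 and 193 CPM at T4, against 26.3 and 164 CPM at T3, and 11 members were not listed in T3 sample 1. In freshwater parr (T1) the sum was 68.8 and 247 CPM, so T1 sample 2 exceeded both T4 samples. The part of muscle tissue in the difference between T4 and T3 was not tested.

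The cholecystokinin gene cck-n, for a gut and brain peptide hormone, had 20.6 and 63.0 CPM at T4, against 11.7 and 3.38 CPM at T3 (log2 fold change 2.42 ± 0.57, SE). Its log2 fold change was 0.75 when nuclei with 2500 or more genes were left out. The pih1d1 gene, coding for a subunit of the R2TP cochaperone complex, had 60.0 and 69.1 CPM at T4, against 14.5 and 16.9 CPM at T3. T2 sample 1 stood at 62.8 CPM and T2 sample 2 at 13.3, so that a level as high as at T4 also occurred in a freshwater sample. The microtubule adaptor gene hook2 (LOC106601330) showed the same pattern, with 18.8 and 15.8 CPM at T4, 3.92 and 3.38 CPM at T3, and 23.4 and 3.13 CPM at T2.

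The ubiquitin ligase gene mib1 (LOC106600429), which acts on Notch ligands, had 63.8 and 87.7 CPM at T4, against 37.2 and 30.4 CPM at T3, and T2 sample 1 had 62.0 CPM. The cadherin gene cdh26, for a cell adhesion protein, had 62.0 and 66.6 CPM at T4, against 39.2 and 33.2 CPM at T3. For cdh26 the highest of the T1 and T2 samples had 42.3 CPM, below both T4 samples. VSIG10-like (LOC106579822) had 137 and 165 CPM at T4, against 71.9 and 69.4 CPM at T3, while a T1 sample had 134 CPM.

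Among lower genes, capsl (calcyphosine-like, a calcium-binding protein) was not listed in either T4 sample, against 14.5 and 23.4 CPM at T3, from 52 and 76 UMIs. Its adjusted p was 0.0296 in edgeR. In the parr and short-photoperiod samples capsl lay between 5.11 and 8.80 CPM, so it was listed in all 6 freshwater samples. The GTPase gene GIMAP7-like (LOC106576602), of a family expressed in lymphocytes, had 99.6 and 106 CPM at T4, against 168 and 173 CPM at T3 (log2 fold change -0.73 ± 0.21, SE), and all 6 freshwater samples had at least 163 CPM. Granzyme A-like (LOC106570903), a protease of cytotoxic lymphocytes, had 4.53 and 2.15 CPM at T4, against 8.95 and 8.91 CPM at T3. CD83-like (LOC106605366), a marker of mature dendritic cells in mammals, had 8.37 and 10.4 CPM at T4, against 18.2 and 14.8 CPM at T3. The part of immune cell numbers in these differences was not tested here. What the study reported on immune cell abundance is given above, and values in gated nuclei are given below. The synergin gamma-like gene LOC106581184, of vesicle traffic, had 19.7 and 19.3 CPM at T4, against 47.5 and 50.4 CPM at T3, but T2 sample 2 had 20.1 CPM.

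**Figure D5:**
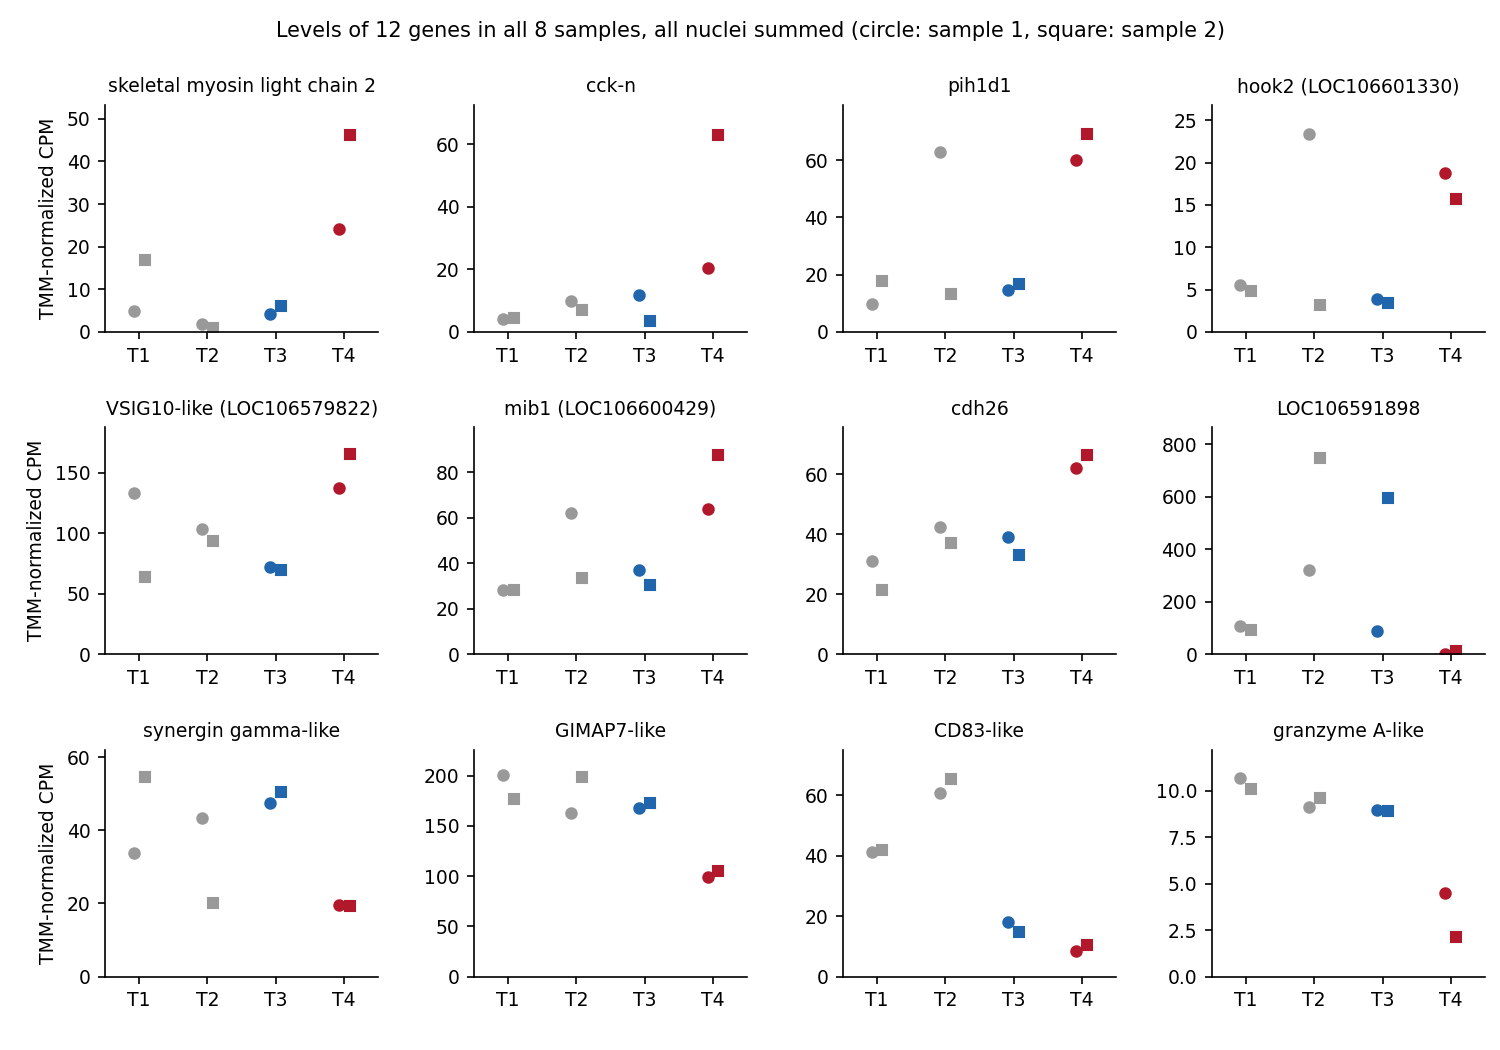
Level of 12 genes, as TMM-normalized CPM, in the 2 samples of each time point in the order T1, T2, T3, T4 (T3 blue, T4 red, T1 and T2 grey). For pih1d1 and hook2, T2 sample 1 reaches the T4 level (62.8 CPM for pih1d1), whereas GIMAP7-like is lower in both T4 samples than in all 6 freshwater samples.

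Nuclei were next parted by UMI gates, which are not cell types. Ionocyte-marker nuclei had at least 2 UMIs of nkcc1a and CFTR, pavement-marker nuclei had at least 2 UMIs of the RHCG loci and lay outside the ionocyte gate, and all other nuclei formed the rest. The ionocyte gate took 7.51% and 8.91% of nuclei at T4, against 7.67% and 9.98% at T3. The pavement gate took 43.3% and 48.0% at T4, against 45.3% and 44.4% at T3. The median depth of ionocyte-marker nuclei was 2295 and 1497 UMIs at T4, against 1470 and 1461 at T3, so T4 sample 1 was deeper.

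In ionocyte-marker nuclei 1 of 11481 genes (0.00871%) passed the threshold, and it was lower at T4. This locus, LOC106591898, has no name in the tables used. It had 0 and 7.71 CPM at T4, against 110 and 280 CPM at T3 (log2 fold change -5.86 ± 0.85, SE, edgeR adjusted p = 0.00936), from 0 and 3 UMIs at T4 and 43 and 155 UMIs at T3. The order of the samples was the same over all nuclei, with 0 and 14.0 CPM at T4 and 90.0 and 596 CPM at T3, where the adjusted p was 1. The T3 samples differed widely from each other. In ionocyte-marker nuclei no lower gene was called without T4 sample 1 (0 calls) or without T3 sample 2 (1 call, higher at T4), and DESeq2 called 0.

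Of the 13 salt secretion genes 10 were tested in these nuclei once the gate genes had been left out, and 0 passed. The median was -0.32, against -0.01 over all genes there, and in 6 (60.0%, against 13.9% of all genes there) both T4 samples lay below both T3 samples. The 6 include LOC106610479 and LOC106602157, whose estimates were the lowest on the list (-0.61 each). Both were far higher in parr, at 2557 and 1055 CPM for LOC106610479 and 3217 and 1076 CPM for LOC106602157. LOC106610479 had 201 and 167 CPM at T4, against 317 and 249 CPM at T3. LOC106575572, which was lower in parr (1193 and 1098 CPM), had 2389 and 2564 CPM at T4, against 2656 and 3480 CPM at T3. LOC100136390 had 2578 and 2944 CPM at T4, against 3021 and 3949 CPM at T3. T4 sample 1 had the deepest gated nuclei, as given above, and the part of depth in these values was not tested. The ammonia channel gene rhag (LOC106571195), used here as a vascular marker, had 270 and 288 CPM at T4, against 71.5 and 143 CPM at T3 (log2 fold change 1.35 ± 0.39, SE, adjusted p = 1). It was not higher in this gate alone: in pavement-marker nuclei rhag had 213 and 519 CPM at T4, against 198 and 203 CPM at T3. In all other nuclei it had 370 and 455 CPM at T4, against 386.5 and 302 CPM at T3, and the samples overlapped. Of the genes tied to seawater transfer, abca12 had 974 and 994 CPM at T4 in ionocyte-marker nuclei, against 804 and 750 CPM at T3. There nucleoplasmin-like had 515 and 596 CPM at T4, against 296 and 416 CPM at T3. The cxl10 gene had 11.4 and 12.8 CPM at T4, against 20.4 and 16.3 CPM at T3. These were apart in the study's direction without passing the threshold, tap2a1 was apart the other way, and the others overlapped. Of all genes tested there, 15.0% were apart upward and 13.9% downward. The cxl10 gene rested on 7 and 5 UMIs at T4, against 8 and 9 at T3. For tap2a1 there were 9 and 4 UMIs at T4, against 4 and 5 at T3.

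In pavement-marker nuclei 0 of 20433 genes (0%) passed edgeR's threshold and 647 had an unadjusted p under 0.05, and DESeq2 called 1. There tap2a1 had 10.8 and 11.6 CPM at T4, against 18.0 and 18.9 CPM at T3 (unadjusted p = 0.023, adjusted p = 1). In ionocyte-marker nuclei tap2a1 was narrowly apart the other way, with 14.7 and 10.27 CPM at T4, against 10.22 and 9.03 CPM at T3. In all other nuclei its samples overlapped, with 12.5 and 14.25 CPM at T4, against 22.7 and 9.48 CPM at T3. The interferon-induced protein 44-like gene LOC106574482 had 6.49 and 8.40 CPM at T4 in pavement-marker nuclei, against 17.5 and 15.7 CPM at T3. GIMAP7-like (LOC106576602) had 139 and 136 CPM at T4 in the same nuclei, against 251 and 265 CPM at T3 (log2 fold change -0.91). In all other nuclei GIMAP7-like had 55.2 and 54.4 CPM at T4, against 77.6 and 90.55 CPM at T3 (log2 fold change -0.61). In ionocyte-marker nuclei its log2 fold change was -0.16 and the samples overlapped. GIMAP7-like was thus higher in pavement-marker nuclei than in all other nuclei. The T cell marker cd3e was lower in pavement-marker than in all other nuclei, at 23.9 and 23.3 against 55.0 and 42.1 CPM at T3. The cell type behind the GIMAP7-like level was not tested. CD83-like had 8.65 and 11.6 CPM at T4 in pavement-marker nuclei, against 20.7 and 20.8 CPM at T3. There the myeloid marker flt3 lay the other way, with 9.51 and 9.69 CPM at T4, against 4.77 and 5.03 CPM at T3. In the other 2 sets flt3 was apart downward, with 1 and 2 UMIs at T4 and 4 and 5 at T3 in ionocyte-marker nuclei. CD83-like was apart downward in ionocyte-marker nuclei too, from 3 and 4 UMIs at T4, against 6 and 7 UMIs at T3. In all other nuclei it overlapped. Granzyme A-like overlapped in pavement-marker nuclei and was apart downward in all other nuclei. In ionocyte-marker nuclei it had only 1 and 0 UMIs at T4, against 1 and 8 UMIs at T3, and was not tested. Of 37 interferon and chemokine genes tested in pavement-marker nuclei 12 were apart downward (32.4%, against 16.9% of all genes) and 3 upward (8.11%, against 16.2%), with a median of -0.25. All other nuclei had 6 of 37 apart each way (16.2%, against 14.5% of all genes there upward and 16.4% downward) and a median of 0.00. Ionocyte-marker nuclei had 4 of 26 apart downward (15.4%, against 13.9% of all genes there). Upward they had 2 (7.69%, against 15.0%), with a median of 0.02. In all other nuclei 0 of 19062 genes (0%) passed and 372 had an unadjusted p under 0.05, and DESeq2 called 0. There 28 of 31 cornified envelope and keratin genes had estimates above 0, with a median of 0.27, and 15 were apart upward (48.4%, against 14.5% of all genes there). In ionocyte-marker nuclei 18 of 27 estimates were above 0 and 6 genes were apart upward (22.2%, against 15.0%), with a median of 0.14. In pavement-marker nuclei 25 of 31 were above 0 and 9 apart upward (29.0%, against 16.2%), with a median of 0.19.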

How the data were processed

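The deposited values are raw UMI counts, which the authors made per nucleus and gene with Cell Ranger (version 3.0.1 in the submitters' processing notes) on the ICSASG_v2 genome. No normalization had been applied, and each file lists genes found in at least 3 nuclei.

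Counts were summed per sample over all barcodes or over gated nuclei. Genes were filtered with filterByExpr (minimum count 10), scaled by TMM and fitted with edgeR 4.0.16 (R 4.3.3, quasi-likelihood) on all 8 samples, with the contrast T4 minus T3, Benjamini-Hochberg adjustment over all genes tested and a threshold of 0.01. The scripts were tested on simulated data. DESeq2 1.42.0, RLE scaling, no filter, other gates, a replicate block and each sample left out were alternatives. A few further alternatives (only T3 and T4 samples with a block, 2 UMIs for unlisted genes, skeletal muscle genes left out) were chosen after seeing the data. Duplicates differed beyond counting noise (chi-square per degree of freedom 6.54 at T4 and 5.07 at T3).

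Members and lists were chosen with earlier results of these data known. Lists (26, with 501 genes, 467 tested) came from patterns in names, which 6086 of 27589 LOC identifiers have, so lists are partial, and a gene can be on several of them. Named genes were those the study names for seawater transfer, all salt secretion genes, and per list those past the threshold or else the most abundant (not all of the last are printed). Since no named gene passed over all nuclei, further genes were named after their values were seen.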

Additional observations from a re-analysis of the deposited data

How the results depend on the processing

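Over all nuclei the count of 0 called genes became 1 with DESeq2, 1 at an adjusted p under 0.05, 51 without the filter on low counts and 36 (21 higher, 15 lower) with only the T3 and T4 samples and a replicate block, an alternative chosen after seeing the data that leaves 1 residual degree of freedom. These last 2 sets shared 29 genes. Of the 51, 50 were also tested with the filter, and 13 were listed in neither sample of a time point. With any 1 sample left out the count stayed at 0. In ionocyte-marker nuclei the count of 1 became 0 with DESeq2, 0 with a gate of at least 1 UMI and 4 without the filter, and ran from 0 to 2 with each sample left out. In pavement-marker nuclei 0 became 1 with DESeq2, 1 at 0.05 and 66 (31 higher, 35 lower) without the filter. In all other nuclei 0 became 18 without the filter. The count of called list members, 0, became 1 without the filter and 1 with the T3 and T4 samples and block, both times LOC106606900. The cause of these differences was not tested. The labels do not say whether the replicate numbers pair the samples. Differences between sample 1 and sample 2 correlated across genes by 0.21 between T3 and T4. In the other pairs of time points the correlation was -0.058 to 0.039. Samples of the same number thus shared some deviation at T3 and T4, and its cause was not tested. With the replicate block over all 8 samples 0 genes were called over all nuclei, 1 in ionocyte-marker nuclei and 0 in the other sets. Of 1643 alternative values of named genes 0 reversed past the test, 23 passed the threshold and 1620 kept their side of it, and in 53 the sign of an estimate changed within its interval. The interval of a gene's difference lay within 1 log2 unit of 0 for 58.0% of genes.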

Other observations

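Some genes were listed at only 1 of the 2 time points. In both T4 samples and neither T3 sample 269 genes were listed, with a median of 1.17 CPM, and LOC106605273 was highest at 14.1 CPM. In both T3 samples and neither T4 sample 289 genes were listed, with the same median, and LOC106560605 was highest at 25.2 CPM. Of these sets 9 and 26 genes passed the filter for testing. Since a file lists only genes seen in at least 3 nuclei, most of these genes lay close to that limit.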
